A study of Homo sapiens with 24 samples.

Results

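RUNX1, RUNX2 and RUNX3 encode the DNA-binding subunits of core-binding factor, and CBFB encodes its shared partner subunit. These 4 genes were taken by symbol from a table of 15862 genes, all 4 were listed, and all 4 passed the filter on low values. They were followed by RNA-seq in 2 human lines of T-cell acute lymphoblastic leukaemia. LOUCY stands for the early T-cell precursor form of the disease, and JURKAT for a form arrested later in T-cell development. LOUCY cells were treated for 24 h with 250 nM JQ1 (n = 4), with 500 nM I-BET151 (n = 4) or with 0.05% DMSO, the vehicle (n = 4). Untreated LOUCY (n = 6) and untreated JURKAT (n = 6) completed the 5 groups, and every group was spread evenly over 2 experiments. JQ1 and I-BET151 are small molecules of different chemical classes that keep BET proteins from binding acetylated histones. Each group is a single established line, so a difference between LOUCY and JURKAT is a difference between those lines and not between leukaemia subtypes.

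A RUNX protein recognises a short DNA element, TGTGGT or its relatives, through its Runt domain, and binding to CBFB strengthens that contact and protects the RUNX protein from degradation. RUNX1 is needed for blood stem cells to form and for thymocyte development, RUNX3 for the CD8 and killer cell programmes, and RUNX2 is best known for bone formation but is also made in early T cells. The same proteins activate or repress a gene depending on the partners they meet there, and RUNX1 is mutated in a share of early T-cell precursor leukaemias, while in TAL1-driven leukaemia it occupies enhancers together with TAL1 and GATA3.

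RUNX genes can start transcription at a distal or a proximal promoter. RefSeq promoters (GRCh38.p14, 250 bases before to 50 after a start) were matched for 3 of the 4 members: 1 for RUNX1, 2 for RUNX2 and 2 for RUNX3, with CBFB named only. They were searched on both strands for TGTGGT, whose reverse complement is ACCACA. The distal promoters of RUNX2 and RUNX3, both called higher in LOUCY than in JURKAT and lower under each inhibitor in the comparisons described later, carried this element, and their upstream 250 bases are shown 5′ to 3′ on the strand of the gene with each match in capitals. The RUNX2 stretch is chr6:45328080-45328329 on the plus strand and the RUNX3 stretch is chr1:24965011-24965260 on the minus strand.
RUNX2 distal promoter: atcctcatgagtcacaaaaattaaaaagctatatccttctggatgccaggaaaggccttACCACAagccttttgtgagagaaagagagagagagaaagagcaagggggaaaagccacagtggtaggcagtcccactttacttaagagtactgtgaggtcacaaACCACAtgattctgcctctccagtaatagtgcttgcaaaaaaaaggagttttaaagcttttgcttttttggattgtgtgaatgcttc
RUNX3 distal promoter: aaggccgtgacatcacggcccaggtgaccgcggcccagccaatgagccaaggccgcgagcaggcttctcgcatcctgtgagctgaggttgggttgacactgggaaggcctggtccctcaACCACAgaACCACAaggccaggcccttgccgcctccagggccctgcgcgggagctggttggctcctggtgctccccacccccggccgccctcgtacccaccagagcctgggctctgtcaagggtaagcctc

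The RUNX2 distal promoter held 4 matches in its 300 bases, at -191, -87, 17 and 25 from the start, and the RUNX3 distal promoter held 2, at -131 and -123. Position 1 is the first transcribed base, and negative positions lie before it. All 6 matches read ACCACA on the printed strand. The proximal promoters of RUNX1, RUNX2 and RUNX3 held 0 matches. The only RUNX1 promoter searched was proximal, so these counts say nothing about a distal RUNX1 promoter. Of 35116 RefSeq promoters of the same length, 13.1% held TGTGGT at least once and 1.31% held 2 matches or more. The looser element TGNGGT, which includes TGTGGT, was found in 43.2%, and it occurred 6 times in the RUNX2 distal, 3 times in the RUNX3 distal and 1 time in the RUNX2 proximal promoter. The longest run of bases that the RUNX2 and RUNX3 distal promoters shared was 18 bases long and held a tandem pair of the element.
Shared run: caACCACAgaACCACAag

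This run began at position 15 of the RUNX2 distal promoter (chr6:45328344-45328361) and at position -133 of the RUNX3 distal promoter (chr1:24965126-24965143, minus strand). It was found in 2 of the 35116 promoters, which are these 2. The letters describe the sequence and say nothing about binding, which was not measured, and RPKM values do not show which promoter a transcript came from.

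Each of the 24 libraries had between 4381134 and 7074198 reads in the table, and between 15342 and 15712 genes stood above 0. Behind the members' values were 371 to 1626 reads per library for RUNX1, 41 to 174 for RUNX2, 21 to 376 for RUNX3 and 482 to 2382 for CBFB, so RUNX3 in JURKAT (21 to 35 reads) and RUNX2 were the least precise. Of 10 T-cell markers, 8 averaged 1 RPKM or more in each LOUCY group and 10 in JURKAT, with CD2 and CD5 under 1 RPKM in LOUCY. Summed B-cell markers were 440.9 to 716.1 RPKM in untreated LOUCY and 14.7 to 24.9 RPKM in JURKAT, carried by CD79A and CD79B. In 3 libraries of experiment 2, levels relative to the group mean fell steeply with the GC content of the gene, by a slope of -0.429 in replicate 1 of I-BET151, -0.374 in replicate 1 of DMSO and -0.308 in replicate 2 of untreated LOUCY, as log2 change for every 10 points of percent GC. The slopes of the other 21 lay between -0.172 and 0.198.

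Levels are RPKM, reads scaled to gene length and library size. Biases particular to a gene, such as its GC content, are not scaled out, so levels of different genes compare only roughly. CBFB was the most abundant member in every library of all 5 groups. In LOUCY the order was CBFB, RUNX1, RUNX3, RUNX2 by group mean, and in JURKAT it was CBFB, RUNX1, RUNX2, RUNX3. RUNX1 and RUNX3 were neighbours that overlapped in untreated LOUCY, where RUNX1 was the higher in 4 of 6 libraries, and in DMSO, where it was the higher in 3 of 4. Under either inhibitor RUNX1 exceeded RUNX3 in 4 of 4 libraries, without overlap of their ranges.

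**Figure D1:**
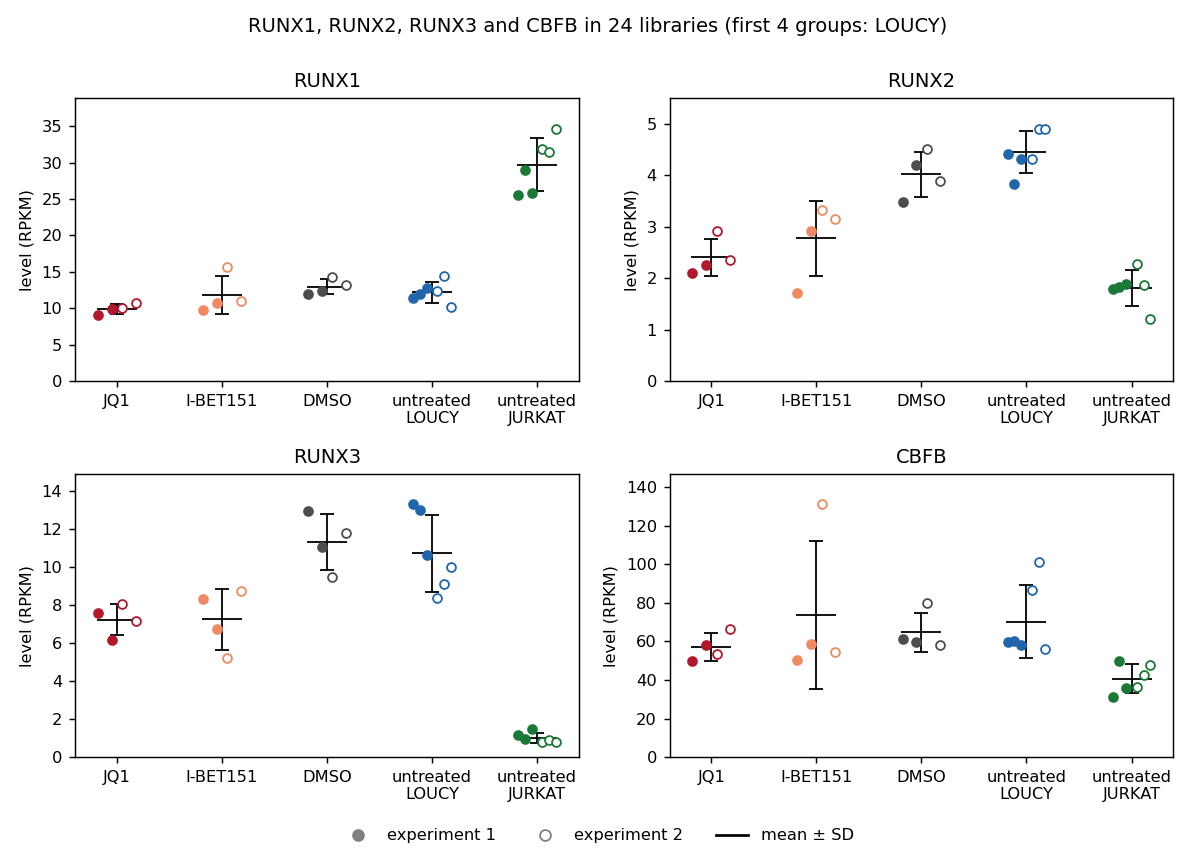
Level of RUNX1, RUNX2, RUNX3 and CBFB in RPKM (vertical axes, each with its own scale from 0) in the JQ1, I-BET151, DMSO, untreated LOUCY and untreated JURKAT libraries. Each point is a library, filled for experiment 1 and open for experiment 2, with the mean ± SD in black. RUNX1 is highest and RUNX3 lowest in JURKAT, RUNX2 and RUNX3 are lower in every inhibitor library than in every DMSO library, and CBFB has its highest point, 130.9 RPKM, in an I-BET151 library.

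The make-up of the RUNX transcripts differed between the lines far more than their sum. The 3 RUNX genes together reached 27.3 ± 1.87 RPKM in untreated LOUCY and 32.5 ± 3.28 RPKM in untreated JURKAT (SD, n = 6 each). RUNX3 made up 39.1 ± 5.72% of that sum in LOUCY, against 3.21 ± 1.17% in JURKAT. RUNX2 made up 16.3 ± 2.17% in LOUCY and 5.62 ± 1.21% in JURKAT. RUNX1 supplied the rest, 44.6 ± 4.86% in LOUCY and 91.2 ± 2.10% in JURKAT. The lowest RUNX1 share of any JURKAT library was 88.5% and the highest of any untreated LOUCY library was 50.8%. The sum was 19.5 ± 1.29 RPKM in JQ1 and 21.8 ± 2.05 RPKM in I-BET151, against 28.3 ± 0.529 RPKM in DMSO (SD, n = 4 each), and neither inhibitor's libraries overlapped those of DMSO. CBFB stood at 2.92 ± 0.366 times the RUNX sum in JQ1 and 3.31 ± 1.42 times in I-BET151, against 2.29 ± 0.359 times in DMSO. Here both inhibitors overlapped DMSO, with ranges of 2.55 to 3.29 in JQ1, 2.39 to 5.42 in I-BET151 and 2.02 to 2.82 in DMSO. The value of 5.42 came from the library of steepest GC slope. The ratio was 2.58 ± 0.723 in untreated LOUCY and 1.25 ± 0.187 in JURKAT. These are transcript ratios and say nothing about subunit protein.

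**Figure D2:**
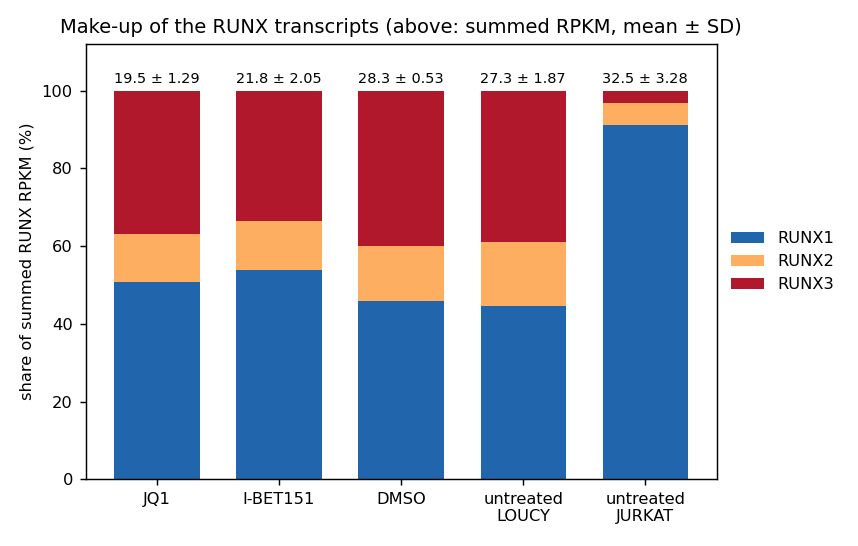
Mean share of each RUNX gene in the summed RUNX RPKM (vertical axis, percent) in the JQ1, I-BET151, DMSO, untreated LOUCY and untreated JURKAT groups, with the summed level (mean ± SD, RPKM) above each bar. RUNX1 fills 91.2% of the JURKAT bar, and RUNX3 fills 33.6% to 39.9% of the LOUCY bars.

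The untreated lines were set against each other to ask how the family differs at rest. RUNX1 was lower in LOUCY, and RUNX2, RUNX3 and CBFB were higher. All 4 passed the limma test (adjusted p under 0.05), and for none did the libraries of the lines overlap. That count stands against a background of 73.1% of the 11978 tested genes called, 35.5% higher and 37.5% lower in LOUCY. Differences are in log2(RPKM + 1), a scale that understates the changes of genes near or under 1 RPKM. RPKM is a relative amount in a bulk library, so fewer cells with a transcript and less of it per cell cannot be told apart.

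RUNX1 (chromosome 21, 34787801 to 35049302, GRCh38.p14) had a lowest, median and highest value of 10.1, 12.1 and 14.4 RPKM in LOUCY, against 25.6, 30.2 and 34.7 RPKM in JURKAT. Every LOUCY library was thus under every JURKAT library. The means were 12.2 ± 1.45 and 29.7 ± 3.62 RPKM (SD, n = 6 each) and the log2 difference was -1.22 (SE 0.09, limma adjusted p = 8.86e-09). RUNX1 overlaps RUNX1-IT1, a long noncoding RNA gene inside it, and the kit does not mark strand, so reads of both loci cannot be fully told apart. RUNX1-IT1 went the other way, at 3.15 ± 0.820 RPKM in LOUCY and 2.12 ± 0.749 RPKM in JURKAT (log2 difference 0.43, limma adjusted p = 0.0288).

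RUNX3 (chromosome 1, 24899511 to 24965138) gave the largest difference of the 4 members. It measured 8.36, 10.3 and 13.3 RPKM (lowest, median, highest) in LOUCY and 0.785, 0.925 and 1.48 RPKM in JURKAT. The lowest LOUCY library was several times the highest JURKAT library. The means were 10.7 ± 2.02 and 1.01 ± 0.271 RPKM, a 10.6-fold ratio, and the log2 difference was 2.53 (SE 0.09, limma adjusted p = 1.48e-12). Within LOUCY it was higher in all 3 libraries of experiment 1 (10.6 to 13.3 RPKM) than in all 3 of experiment 2 (8.36 to 9.96 RPKM), and the difference between the lines was 2.59 in experiment 1 and 2.47 in experiment 2 on the log2 scale.

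RUNX2 (chromosome 6, 45328330 to 45551082) measured 3.83, 4.35 and 4.90 RPKM in LOUCY, against 1.21, 1.85 and 2.27 RPKM in JURKAT. It was thus the scarcest member in LOUCY and lower still in every JURKAT library. Its means were 4.44 ± 0.408 and 1.81 ± 0.342 RPKM, with a log2 difference of 0.96 (SE 0.10, limma adjusted p = 4.37e-07). SUPT3H, a transcription coactivator subunit gene whose span overlaps that of RUNX2, was lower in LOUCY, at 3.65 ± 0.487 against 4.77 ± 0.951 RPKM (log2 difference -0.30, limma adjusted p = 0.0122).

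CBFB (chromosome 16, 67029149 to 67101058) measured 55.9, 59.8 and 101.3 RPKM in LOUCY and 31.1, 39.5 and 49.99 RPKM in JURKAT. The lowest LOUCY library was above the highest JURKAT library. Its means were 70.2 ± 19.0 and 40.7 ± 7.41 RPKM, with a log2 difference of 0.75 (SE 0.14, limma adjusted p = 0.000192). Leaving out the 3 libraries of steep GC slope gave 0.66 with 64.0 ± 12.6 RPKM in LOUCY (n = 5), and the call held.

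JQ1 was set against DMSO to ask how BET inhibition changed the family in LOUCY. RUNX1, RUNX2 and RUNX3 fell, and CBFB did not pass the test. The 3 of 4 members called lower compare with a background of 15.9% of 11411 tested genes lower, 10.1% higher and 26.0% called in either direction.

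RUNX2 measured 2.09, 2.26, 2.91 and 2.35 RPKM in JQ1, against 3.48, 4.2, 4.50 and 3.88 RPKM in DMSO. Every JQ1 library was lower than every DMSO library, and the JQ1 mean was 59.9% of the DMSO mean (2.40 ± 0.355 and 4.02 ± 0.437 RPKM; SD, n = 4 each). The log2 difference was -0.56 (SE 0.12, limma adjusted p = 0.00220). RUNX3 measured 7.55, 6.16, 8.06 and 7.14 RPKM in JQ1 and 12.9, 11.02, 9.45 and 11.8 RPKM in DMSO. Here too the groups did not overlap, with means of 7.23 ± 0.805 and 11.3 ± 1.46 RPKM and a JQ1 mean at 64.0% of that in DMSO. The log2 difference was -0.58 (SE 0.15, limma adjusted p = 0.00824). In experiment 2 alone, with 2 libraries a group, the log2 differences were -0.52 for RUNX2 and -0.43 for RUNX3, with limma adjusted p of 0.227 and 0.449.

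RUNX1 measured 9.04, 9.84, 10.0 and 10.7 RPKM in JQ1, against 12.01, 12.3, 14.4 and 13.2 RPKM in DMSO, again without overlap. Its mean was 9.91 ± 0.688 RPKM in JQ1, which is 76.3% of the 13.0 ± 1.05 RPKM in DMSO, and the difference came to -0.36 on the log2 scale (SE 0.12, limma adjusted p = 0.0378). This call was close to the threshold. Leaving out any 1 of the 8 libraries ended it (adjusted p 0.0532 to 0.0924), as did leaving out the experiment term (adjusted p = 0.0576) and using experiment 2 alone (adjusted p = 0.492). CBFB measured 49.8, 57.9, 53.5 and 66.5 RPKM in JQ1 and 61.3, 59.7, 79.9 and 58.4 RPKM in DMSO. These values overlapped, and the log2 difference of -0.18 (95% confidence interval -0.63 to 0.27, limma adjusted p = 0.592) left both a fall and a rise within its interval.

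I-BET151 was set against the same 4 DMSO libraries, so its values are not independent of those for JQ1. RUNX2 and RUNX3 fell, and RUNX1 and CBFB did not pass the test. The background was again 15.9% of tested genes lower, with 10.3% higher and 26.3% called in either direction. RUNX2 measured 1.71, 2.92, 3.31 and 3.14 RPKM in I-BET151, each under every DMSO library (3.48 to 4.50 RPKM). The difference came to -0.43 on the log2 scale (SE 0.12, limma adjusted p = 0.0139), and it lost the call without DMSO replicate 2 of experiment 1 (adjusted p = 0.0535) or without I-BET151 replicate 1 of experiment 1 (adjusted p = 0.0604).

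RUNX3 measured 8.29, 6.73, 5.20 and 8.73 RPKM in I-BET151, and the highest of these was below the lowest DMSO library, at 9.45 RPKM. The I-BET151 mean of 7.24 ± 1.61 RPKM was 64.1% of the DMSO mean, with a log2 difference of -0.59 (SE 0.15, limma adjusted p = 0.00714). In experiment 2 alone RUNX2 differed by -0.29 and RUNX3 by -0.57 on the log2 scale, with limma adjusted p of 0.477 and 0.252. RUNX1 measured 9.81, 10.8, 15.6 and 10.996 RPKM in I-BET151. Its library at 15.6 RPKM, replicate 1 of experiment 2, was above all 4 DMSO libraries and was the library with the steepest GC slope, while the other 3 were below all of them. The log2 difference was -0.14 (95% confidence interval -0.40 to 0.11, limma adjusted p = 0.423), and -0.23 (limma adjusted p = 0.101) without the 3 libraries of steep GC slope. CBFB measured 50.5, 58.8, 130.9 and 54.7 RPKM in I-BET151, a range that held all 4 DMSO libraries. Its difference of 0.08 on the log2 scale had a 95% confidence interval of -0.37 to 0.53 (limma adjusted p = 0.820).

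**Figure D3:**
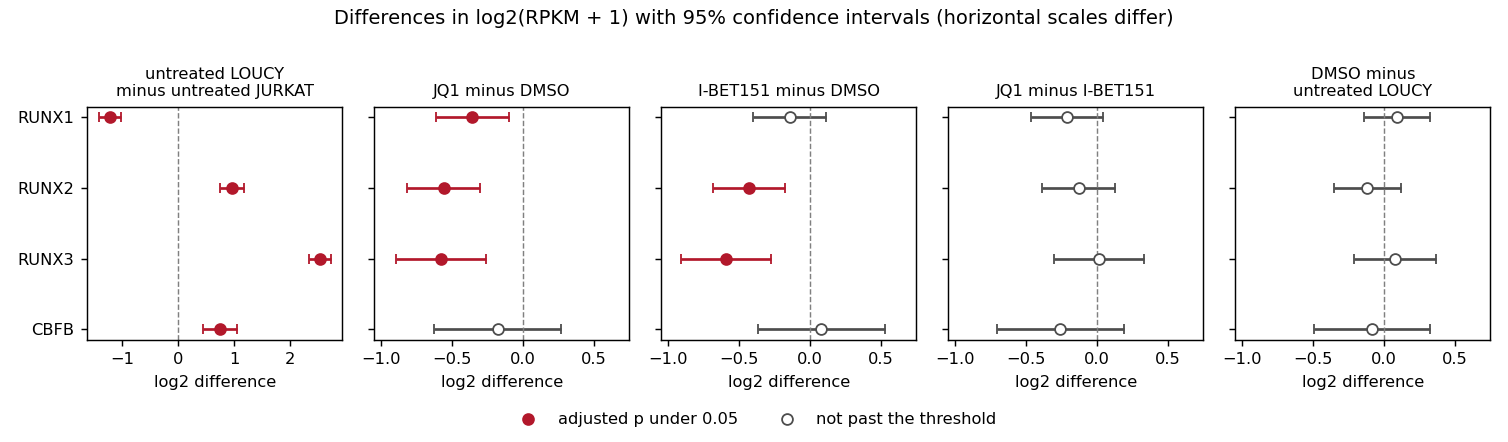
Difference in log2(RPKM + 1) (horizontal axes) for each member in the 5 comparisons, with 95% confidence intervals from the limma fits; the leftmost panel has its own scale. Filled red points passed an adjusted p of 0.05. RUNX3 lies at 2.53 and RUNX1 at -1.22 between the lines, RUNX2 and RUNX3 lie below 0 under both inhibitors, and no interval of JQ1 minus I-BET151 or of DMSO minus untreated LOUCY leaves out 0.

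The inhibitors were used at different doses, so their direct comparison is between these treatments and not between the molecules. None of the 4 members differed between JQ1 and I-BET151 past the threshold, and neither did any of the 11411 tested genes by limma (0% called; 531 genes at an unadjusted p under 0.05, and 0 by limma voom on recovered reads). The log2 difference, JQ1 minus I-BET151, was -0.21 for RUNX1 (95% confidence interval -0.47 to 0.04), -0.13 for RUNX2 (-0.39 to 0.13), 0.02 for RUNX3 (-0.30 to 0.33) and -0.26 for CBFB (-0.71 to 0.19). These intervals do not show that the treatments act alike. The RUNX3 value turned to -0.10 and the CBFB value to 0.034 without the 3 libraries of steep GC slope.

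DMSO itself was set against untreated LOUCY. No member passed the test, against 0.175% of tested genes called. The log2 differences, DMSO minus untreated, were 0.09 for RUNX1, -0.12 for RUNX2, 0.08 for RUNX3 and -0.09 for CBFB, with limma adjusted p of 0.834 to 0.961. RUNX1-IT1 averaged 6.74 ± 2.34 RPKM in DMSO (n = 4) and 3.15 ± 0.820 RPKM in untreated LOUCY (n = 6) and did not pass (log2 difference 0.87, limma adjusted p = 0.115). Across all 5 comparisons, 0 of 20 tests found that a member's difference depended on the experiment (lowest limma adjusted p = 0.718).

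CBFB had a coefficient of variation of 51.9% in I-BET151, 15.6% in DMSO and 27.0% in untreated LOUCY, above each RUNX gene in those 3 groups. Those 3 groups are the ones that hold a library of steep GC slope. In JQ1 RUNX2 (14.8%) was above CBFB (12.6%), and in JURKAT RUNX2 (18.9%) and RUNX3 (26.7%) were above CBFB (18.2%). CBFB transcripts averaged 42.2% GC, at percentile 25.6 of the genes with a value. RUNX3 had 59.4% GC, RUNX1 48.6% and RUNX2 48.1%, against a median of 47.4%. The highest CBFB level of the I-BET151, DMSO and untreated LOUCY groups fell in the library of steepest slope in each, at 130.9, 79.9 and 101.3 RPKM. This was not particular to CBFB. RUNX1 was also highest of its group in each of those 3 libraries, at 15.6, 14.4 and 14.4 RPKM. RUNX2 was highest there in I-BET151 and DMSO, at 3.31 and 4.50 RPKM, but not in untreated LOUCY. Without those 3 libraries CBFB averaged 54.7 ± 4.15 RPKM in I-BET151 (n = 3) and 59.8 ± 1.49 RPKM in DMSO (n = 3), and the log2 difference was -0.13 (limma adjusted p = 0.504), against 0.08 over all libraries. The same I-BET151 library had the lowest RUNX3 of its group, at 5.20 RPKM. What part GC bias had in these levels was not tested. RUNX2 and RUNX3 kept their calls without the 3 libraries, at -0.54 and -0.64 under JQ1 and at -0.46 and -0.54 under I-BET151 on the log2 scale, and RUNX1 kept its call under JQ1 at -0.32 (limma adjusted p = 0.0168).

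**Figure D4:**
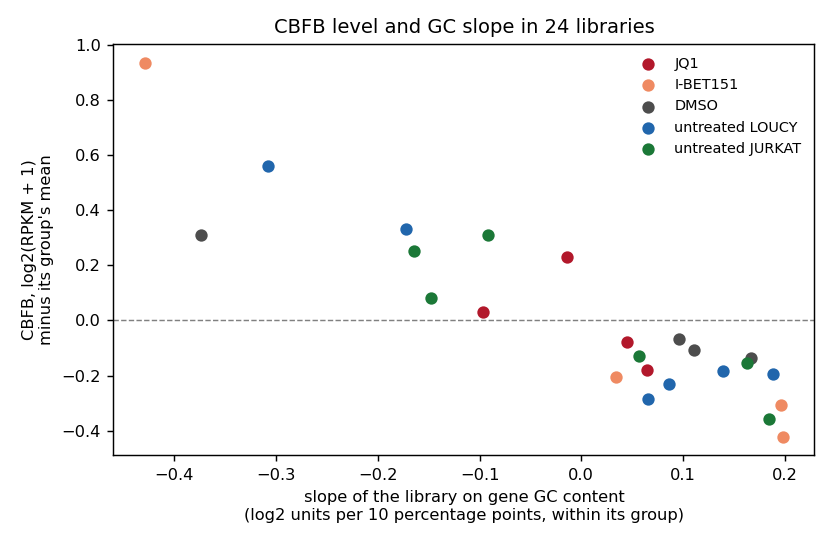
Level of CBFB as log2(RPKM + 1) minus its group's mean (vertical axis) against the slope of the library on gene GC content within its group (horizontal axis, log2 change for every 10 points of percent GC), for the 24 libraries coloured by group. The 3 libraries at the far left, with slopes of -0.429, -0.374 and -0.308, all lie above their group's mean.

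A list of 30 genes held transcription factors that bind DNA beside RUNX proteins and some cofactors that join them without binding DNA themselves. Of these 22 were tested between the lines, and 14 were higher and 7 lower in LOUCY, where 35.5% of all tested genes were higher and 37.5% lower. The median log2 difference was 0.98, against -0.02 over all tested genes. ERG, an ETS factor, HHEX, a homeobox factor of progenitors, and STAT5A, a cytokine-responsive factor, led the higher genes, with ERG at 21.7 ± 1.29 RPKM in LOUCY and 0.454 ± 0.134 in JURKAT. TAL1, which forms a complex with RUNX1 and GATA3 in T-cell leukaemia, led the lower genes, at 0.186 ± 0.0671 RPKM in LOUCY against 27.0 ± 2.19 in JURKAT (log2 difference -4.56, limma adjusted p = 5.24e-16). TCF7 and LEF1, the factors of WNT signalling and T-cell commitment, followed it. TCF7 averaged 0.111 ± 0.150 RPKM in LOUCY and 24.4 ± 2.29 in JURKAT.

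Under JQ1 9 of 19 tested partner factors fell and 1 rose (median -0.28), and under I-BET151 9 fell and 1 rose (median -0.43). Over all tested genes 15.9% fell under each inhibitor, and 10.1% rose under JQ1 and 10.3% under I-BET151, with medians of -0.01 and 0.00041. In experiment 2 alone 1 of the 19 fell under JQ1 and 3 under I-BET151, where 382 and 437 of all tested genes were called. ETS1, which binds next to RUNX1 at T-cell receptor enhancers, averaged 18.9 ± 2.07 RPKM in JQ1 and 17.9 ± 0.961 in I-BET151, against 37.1 ± 3.30 in DMSO (log2 differences -0.94 and -1.01, limma adjusted p = 9.12e-07 and 3.79e-07). MYB, a progenitor transcription factor, averaged 40.4 ± 3.53 in JQ1 and 45.5 ± 12.7 in I-BET151, against 77.6 ± 6.27 RPKM in DMSO. GATA3, needed for T-cell fate, was among the 3 lowest in p under JQ1, at 23.6 ± 5.32 against 46.9 ± 3.77 RPKM in DMSO. STAT5A was among them under I-BET151, at 26.6 ± 4.59 against 60.9 ± 9.53 RPKM in DMSO. ELF1, an ETS factor, was the gene that rose, to 189.9 ± 9.05 RPKM in JQ1 and 211.2 ± 8.97 in I-BET151, against 154.6 ± 4.18 in DMSO. Its call under JQ1 was lost without DMSO replicate 1 or 2 of experiment 1, JQ1 replicate 1 of experiment 1, or JQ1 replicate 1 or 2 of experiment 2, each left out alone.

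Of 26 tested corepressors and chromatin partners 13 were higher and 4 lower in LOUCY, against 35.5% and 37.5% of all tested genes. The higher genes were led by the acetyltransferase KAT6B and the Groucho corepressor TLE3, which reached 29.2 ± 2.02 RPKM in LOUCY and 13.2 ± 1.08 in JURKAT. TLE2, HDAC1 and HDAC3 led the lower genes. Under JQ1 2 of 25 rose and 3 fell, against 10.1% and 15.9% of all tested genes. Under I-BET151 1 rose and 3 fell, against 10.3% and 15.9%. The genes that fell were the same 3 under either inhibitor: the DNA methyltransferase DNMT3A, the corepressor CBFA2T3 and the arginine methyltransferase PRMT1. DNMT3A averaged 13.6 ± 1.56 RPKM in JQ1 and 13.3 ± 2.04 in I-BET151, against 23.5 ± 3.16 in DMSO. HDAC3 rose under each inhibitor, with KAT6A beside it under JQ1, and both calls under JQ1 were lost without DMSO replicate 1 of experiment 1. The list had 1 gene higher without JQ1 replicate 1 or 2 of experiment 1, JQ1 replicate 1 of experiment 2 or DMSO replicate 1 of experiment 2. The count lower under I-BET151 ranged from 2 to 5 with 1 library left out, at 5 without replicate 1 of experiment 2 of either DMSO or I-BET151. Without the 3 libraries of steep GC slope 10 of 25 fell under JQ1 and 6 under I-BET151, and in experiment 2 alone 0 and 1 did. The shares of all tested genes given here come from the fit over all libraries. Over the alternative settings 382 to 4098 genes in all were called under JQ1 and 437 to 3369 under I-BET151. The changed counts of the list were not set against shares of the same fits.

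Another list held enzymes that modify RUNX proteins, such as kinases and ubiquitin ligases, and some regulatory subunits of such enzymes. They were higher in LOUCY in 7 and lower in 8 of 26 cases, against 35.5% and 37.5% of all tested genes. PIM1, a kinase that phosphorylates RUNX1 and RUNX3, was higher, at 14.7 ± 2.27 RPKM in LOUCY against 2.11 ± 0.702 in JURKAT. The deubiquitinase USP7 was lower, at 7.84 ± 0.694 RPKM in LOUCY against 63.0 ± 3.0 in JURKAT. Under JQ1 4 of 25 rose and 1 fell, against 10.1% and 15.9% of all tested genes. Under I-BET151 3 rose and 2 fell, against 10.3% and 15.9%. With 1 library left out the JQ1 counts were 3 to 5 higher and 1 to 3 lower, the most lower without DMSO replicate 2 of experiment 2, and the I-BET151 counts were 2 to 6 higher and 1 to 4 lower. The 6 higher came without DMSO replicate 2 of experiment 2 or without I-BET151 replicate 1 of experiment 2, and the 4 lower without that I-BET151 library. PIM1 rose to 27.3 ± 2.61 RPKM in JQ1 and 22.2 ± 3.03 in I-BET151, against 13.2 ± 3.73 in DMSO, and its relative PIM2 rose with it. MAPK3, the kinase ERK1, fell to 3.05 ± 0.637 RPKM in JQ1 and 4.09 ± 0.896 in I-BET151, against 9.71 ± 2.25 in DMSO. Without the 3 libraries of steep GC slope 4 genes fell under JQ1 and 5 under I-BET151, and in experiment 2 alone 1 gene rose and 1 fell under JQ1 and 0 passed under I-BET151 in limma. These counts too were not set against shares of the same fits.

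Genes known as RUNX targets in T cells were split between the lines and mostly lower under the inhibitors. Of 21 tested genes 8 were higher and 10 lower in LOUCY, against 35.5% and 37.5% of all tested genes. CD244, an immune receptor, and PRF1, the pore-forming protein of killer cells, were higher, with PRF1 at 51.7 ± 11 RPKM in LOUCY and 0.646 ± 0.202 in JURKAT. CD4, whose silencer is a classical RUNX site, was also higher, at 4.16 ± 0.863 RPKM in LOUCY against 0.2 ± 0.139 in JURKAT. BCL11B, RAG1 and BLK were lower, with BCL11B, a T-cell commitment factor, at 3.61 ± 0.472 RPKM in LOUCY against 21.6 ± 1.08 in JURKAT.

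Of 17 T-cell targets tested in LOUCY, 12 fell under JQ1 and 12 under I-BET151, against 15.9% of all tested genes under each (medians -0.76 and -0.74), NOTCH1 rose under JQ1, and 0 rose under I-BET151. The NOTCH1 call was lost without the 3 libraries of steep GC slope and in each experiment alone. CD244 averaged 6.01 ± 1.43 RPKM in JQ1 and 5.67 ± 1.4 in I-BET151, against 43.9 ± 3.26 in DMSO (log2 differences -2.70 and -2.78, limma adjusted p = 6.45e-10 and 5.15e-10). LCK, the kinase of the T-cell receptor, averaged 39.7 ± 1.35 in JQ1 and 41.8 ± 9.06 in I-BET151, against 177.4 ± 27.1 RPKM in DMSO. RAG2, a recombinase subunit, averaged 0.481 ± 0.190 in JQ1 and 0.430 ± 0.113 in I-BET151, against 2.13 ± 0.368 RPKM in DMSO. T-cell markers, 4 of which are also on this list, mostly moved alongside, with 5 of 8 lower under either inhibitor. Under JQ1 0 rose, and under I-BET151 1 rose, PTPRC (log2 difference 0.41, limma adjusted p = 0.0143). The summed markers were 1172.8 to 1232.2 RPKM in JQ1 and 1022.2 to 1315.3 RPKM in I-BET151, against 1748.2 to 2139.2 RPKM in DMSO. The part of the T-cell markers in the counts was not tested. With 2 libraries a group, experiment 2 alone gave 4 genes lower under JQ1 and 6 under I-BET151. Of all tested genes 382 and 437 were called there.

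Targets known from progenitor, myeloid, B-lineage and platelet cells were higher in LOUCY in 14 of 20 cases and lower in 5 (median 1.92), against 35.5% and 37.5% of all tested genes. TIMP1, VPREB1 and CDKN2A led the higher genes and CEBPE, CD34 and KIT the lower ones. VPREB1 is part of the surrogate light chain of precursor B cells, and whether it shares reads with similar sequences was not tested. Under JQ1 9 of 18 fell and 2 rose, and under I-BET151 10 fell and 3 rose (medians -0.52 and -0.64), where 15.9% of all tested genes fell under each. GFI1B, a repressor of the erythroid and platelet lineages, averaged 19.3 ± 1.59 RPKM in JQ1 and 17.9 ± 4.93 in I-BET151, against 100.03 ± 18.6 in DMSO. NFE2, a platelet factor, averaged 24.9 ± 4.67 in JQ1 and 18.7 ± 4.64 in I-BET151, against 78.5 ± 13.1 RPKM in DMSO. CDKN1A, a cell-cycle inhibitor, rose to 25.4 ± 3.96 RPKM in JQ1 and 23.3 ± 4.52 in I-BET151, against 5.47 ± 1.32 in DMSO, and BCL2L11, a cell-death gene, rose with it. Myeloid markers moved in the same direction as the list, with LYZ at 3.95 ± 0.698 RPKM in JQ1 and 4.49 ± 0.859 in I-BET151, against 17.1 ± 2.63 in DMSO, and 3 of the 7 markers, CD14, FCGR3A and CSF3R, were not listed. The summed myeloid markers were 4.22 to 6.58 RPKM in JQ1 and 4.41 to 6.86 RPKM in I-BET151, against 17.9 to 23.9 RPKM in DMSO, and B-cell markers fell in 2 of 4 tested cases under each inhibitor. CD79A averaged 242.9 ± 49.3 RPKM in JQ1 and 223.2 ± 72.0 in I-BET151, against 401.5 ± 104.1 in DMSO, and CD79B averaged 43.9 ± 6.29 in JQ1 and 42.2 ± 7.05 in I-BET151, against 88.1 ± 16.8 RPKM in DMSO. PECAM1, made by endothelial cells, platelets and some leukocytes, averaged 3.42 ± 0.437 RPKM in JQ1 and 3.76 ± 0.998 in I-BET151, against 24.1 ± 1.96 in DMSO. Of the tested myeloid and B-cell markers MPO and CD79A are also on this list of targets, and both were called lower under each inhibitor. The part of the markers in the counts was not tested. In experiment 2 alone 4 genes of the list fell under JQ1 and 5 under I-BET151. There, 382 and 437 of all tested genes were called. For none of the 5 lists did JQ1 against I-BET151 or DMSO against untreated LOUCY give a gene past the threshold in limma.

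**Figure D5:**
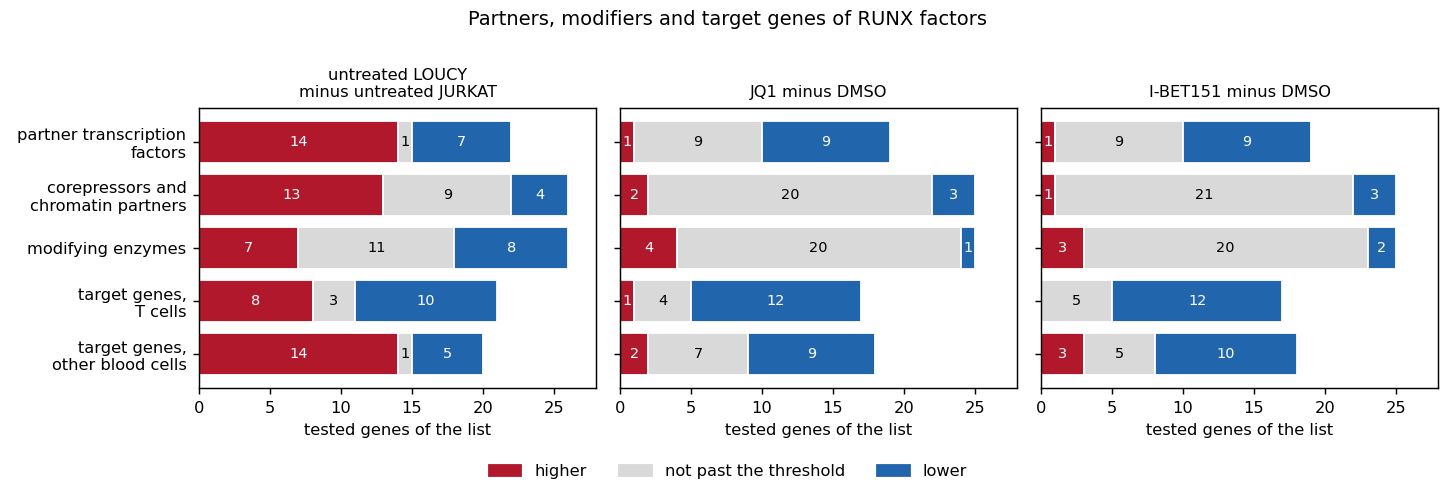
Number of tested genes (horizontal axis) in 5 lists of genes tied to RUNX factors that were higher (red), lower (blue) or not past the threshold (grey), for untreated LOUCY minus untreated JURKAT, JQ1 minus DMSO and I-BET151 minus DMSO. Lower genes make up 12 of 17 T-cell targets under each inhibitor and 3 of 25 corepressors and chromatin partners.

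RUNX genes sit beside members of the CLIC and RCAN families on their chromosomes, a layout kept from ancient duplications. RCAN3, a regulator of calcineurin 358.5 kb from RUNX3, was called in the direction of RUNX3 between the lines and under each inhibitor. It averaged 13.5 ± 1.34 RPKM in LOUCY and 4.06 ± 0.150 in JURKAT (log2 difference 1.51, limma adjusted p = 7.63e-11). It fell to 7.48 ± 0.984 RPKM in JQ1 and 7.26 ± 1.55 in I-BET151, against 12.8 ± 0.902 in DMSO (log2 differences -0.71 and -0.76, limma adjusted p = 5.00e-05 and 2.79e-05). RCAN1, 172.7 kb from RUNX1, was lower in LOUCY as RUNX1 was, at 5.20 ± 1.09 against 11.5 ± 2.24 RPKM, and did not pass under either inhibitor. CLIC4, the nearest listed neighbour of RUNX3 at 55.2 kb, averaged 64.9 ± 14.8 RPKM in LOUCY and 66.0 ± 14.6 in JURKAT and passed no test. CLIC5, CLIC6 and RCAN2 were below the filter.

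Within 500 kb of RUNX3, 9 of 10 listed genes were tested, and 6 were higher and 1 lower in LOUCY, where 73.1% of all tested genes were called. The next nearest after CLIC4 were the splicing factors SRRM1 and SYF2, with log2 differences of 0.23 and 0.54. Under each inhibitor RCAN3 fell and RSRP1 and TMEM50A rose among the 9 tested, the last pair named after their values were seen. Over all tested genes 10.1% rose and 15.9% fell under JQ1, and 10.3% and 15.9% under I-BET151. RSRP1 was also higher in DMSO, at 71.1 ± 13.5 RPKM, than in untreated LOUCY, at 48.2 ± 7.45 RPKM (limma adjusted p = 0.0110). Around CBFB, itself higher in LOUCY, 29 of 33 listed genes were tested between the lines. Of these neighbours of CBFB 4 were higher and 12 lower in LOUCY, against 35.5% and 37.5% of all tested genes. Of its nearest listed neighbours PHAF1 and TRADD were lower (log2 differences -0.63 and -0.46) and B3GNT9 was below the filter. Under JQ1 4 of 25 neighbours of CBFB rose and 0 fell, against 10.1% and 15.9% of all tested genes, with TRADD, a signalling adaptor of the TNF receptor, at 12.4 ± 1.52 RPKM in JQ1 and 13.3 ± 3.11 in I-BET151, against 7.75 ± 1.11 in DMSO. The other 3 were FBXL8, ATP6V0D1 and TK2. Under I-BET151 4 rose and 0 fell, against 10.3% and 15.9% of all tested genes. Beside TRADD they were HSF4, FBXL9P and ATP6V0D1. All of these but TRADD were named after their values were seen. Around RUNX1 and RUNX2 3 of 5 and 1 of 2 listed genes were tested, RUNX1-IT1, RCAN1, SUPT3H and, outside the rule for named genes, KCNE2, and none passed under either inhibitor. LINC01426 and CLIC6, near RUNX1, were below the filter.

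The genes whose levels followed each member most closely over the 18 LOUCY libraries were found by Pearson correlation of log2(RPKM + 1), with each experiment's mean removed, among 7559 genes of mean 5 RPKM or more. All points share the libraries, their depth and their GC slope, and the values are descriptions without a test. RUNX3 was followed most closely by NHP2 (r = 0.98), DNMT3A (0.97), NDUFS3 (0.96) and FARSA (0.95), and ran opposite to ZNF701 and PREPL (-0.95 each). RUNX2 was followed by ZCCHC7, MSRB3, MYB and SFXN4 (0.92 to 0.93) and ran opposite to TMEM175 (-0.93) and HOXA9 (-0.91). RUNX1 was followed by TYW3, DENND1B, CELF2 and SKAP2 (0.90 to 0.93) and ran opposite to WBP2 (-0.89). CBFB was followed by SEP15, RAP1B, TLK1 and PHACTR2 (0.97 to 0.98) and ran opposite to KPNA6 and PSMD13 (-0.94 and -0.93), with values of 0.89 to 0.92 and of -0.86 and -0.78 in the 15 libraries without a steep GC slope. By Spearman correlation, which uses ranks, SEP15, RAP1B, TLK1 and PHACTR2 came only 73rd, 96th, 57th and 52nd for CBFB. ZCCHC7 and SFXN4 tied at rank 66 for RUNX2.

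Among themselves, RUNX2 and RUNX3 had r = 0.67 over the 18 libraries and 0.73 over the 15 without a steep GC slope. RUNX1 and RUNX2 had 0.60 and 0.71, and RUNX1 and RUNX3 had 0.24 and 0.67. CBFB went with RUNX1 (0.77 and 0.54) and less with RUNX2 (0.28 and 0.39), and its correlation with RUNX3 was -0.25 over 18 libraries and 0.10 over 15. These correlations pool the inhibitor, DMSO and untreated groups, so they carry the differences between groups given earlier.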

How the data were processed

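The authors made RNA-seq libraries from polyadenylated RNA by the Smart-seq2 and Nextera XT methods, per the labels' protocols, and deposited RPKM values for 15862 genes in 24 libraries. STAR 2.5.1b, featureCounts, Subread 1.4.5-p1, edgeR 3.10.5 and the build hg38 are named in the submitters' processing notes, with annotation, gene lengths and settings not given in the sources used here. RPKM cannot show a change in the RNA content of a cell.

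The members and the gene lists were chosen with earlier results of these data known, and the lists were compiled from general knowledge; MYB, SPI1, PAX5, CEBPA and CCND3 stand in more than 1. Genes that reached 1 RPKM in 4 or more libraries were tested on log2(RPKM + 1) with limma 3.58.1 (R 4.3.3), with an experiment term, a mean-variance trend, two-sided tests and Benjamini-Hochberg adjustment over all tested genes, called under 0.05. The lines were compared in 12 libraries, and the other comparisons share a fit of 18 LOUCY libraries. The script was tested on simulated data. Alternatives were other pseudocounts, filters and normalizations, voom on recovered reads, each experiment alone, averaged replicates, a replicate block, and leaving out single libraries or the 3 of steep GC slope. Whole reads were recovered from the RPKM steps in 100% of genes, within 0.01 reads. GC content came from GENCODE transcripts, for 96.1% of the 7706 genes used. Promoters and positions came from RefSeq (GRCh38.p14, the same assembly as hg38), and 15519 of 15862 genes matched by symbol.

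Named genes were the members, the 4 most and 2 least alike genes of each, up to 3 genes per list, comparison and direction by adjusted p, the 3 nearest listed neighbours within 500 kb, and the CLIC and RCAN genes. A gene named by this rule is not reported here. Nothing states that replicates were separate cultures, so p-values measure the spread between these libraries, which may be technical.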

Additional observations from a re-analysis of the deposited data

Results flagged for a closer look

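CBFB stood far from the other 3 libraries of its group in 2 of the 20 sets of libraries examined, the 4 members in 5 groups; chance marks about 1 in 20. In I-BET151 replicate 1 of experiment 2 it was 130.9 RPKM, and the gap to the next library was 0.897 of the group's range. In DMSO replicate 1 of experiment 2 it was 79.9 RPKM, with a gap of 0.862 of the range. These libraries had the 2 steepest GC slopes, -0.429 and -0.374, and the part of that slope in the levels was not tested.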

How the results depend on the processing

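Between the lines, the 4 members kept direction and call under every alternative that gave a value (RUNX1 -1.39 to -1.09, RUNX2 0.87 to 1.27, RUNX3 2.47 to 3.29, CBFB 0.62 to 0.89); RUNX2 had no value with the filter at 5 RPKM. In experiment 2 alone, with 2 libraries a group, the calls were lost for RUNX1 (-0.38), RUNX2 (-0.52) and RUNX3 (-0.43) in JQ1 against DMSO and for RUNX2 (-0.29) and RUNX3 (-0.57) in I-BET151 against DMSO, and the counts of all genes called were 382 and 437, against 2971 and 2999. RUNX1 in JQ1 was also not called without the experiment term or with replicates averaged (-0.36 in both), and it ranged from -0.38 to -0.33 with 1 library left out. RUNX2 in I-BET151 ranged from -0.49 to -0.30. The direction turned, without a call, for CBFB in I-BET151 against DMSO (-0.15 in experiment 1, -0.13 without the 3 libraries of steep GC slope, -0.19 to 0.25 with 1 left out), for RUNX3 in JQ1 against I-BET151 (-0.11, -0.10, and -0.095 to 0.14), for CBFB there (0.034 without the steep libraries, -0.43 to 0.015 with 1 left out), and in DMSO against untreated LOUCY for RUNX3 (-0.032 in experiment 1) and CBFB (0.030, and -0.19 to 0.024). JQ1 against I-BET151 gave 1 gene called in experiment 1, with replicates averaged and without the steep libraries. DMSO against untreated LOUCY gave 20 genes, 13 without the experiment term, 10 by upper quartile, 7 by voom, 67 and 0 in experiments 1 and 2, 6 with replicates averaged, 34 without the steep libraries and 12 to 26 with 1 left out. The causes were not tested. The promoter share was 43.2% for TGNGGT and 13.1% for TGTGGT. Of the 50 genes most like RUNX1, RUNX2, RUNX3 and CBFB by Pearson, 32, 21, 27 and 19 were also in the top 50 by Spearman.

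Replicate numbers gave no clear pairing: same-numbered libraries correlated at -0.676 to 0.772 (median 0.0029, 42 pairs), and other-numbered ones at -0.772 to 0.712 (median 0.0025, 72 pairs). Where a group had 2 libraries in an experiment, their deviations mirrored each other. The pairs are thus not independent, and these values cannot exclude a pairing. A replicate block gave 4 genes in DMSO against untreated LOUCY and ended no call of a member. Read numbers limit RUNX3 in JURKAT and RUNX2 most.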
